A study of Homo sapiens with 6 samples.

Results

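The promoters of 41 genes of the DNA replication machinery were compared between control and edited OCI-AML3 cells. This established human cell line was derived from acute myeloid leukemia (AML) and expresses mutant NPM1 (mtNPM1). The genes were chosen by name for their role in replication and not by a rule on their values, though earlier results of these data were known. They stood among 19881 protein-coding genes with an annotated start on both genome builds used, which left 19840 other genes for comparison. Peaks of H3K4me3, a trimethylation of histone H3 found at active promoters, and of H3K27Ac, an acetylation found at active promoters and enhancers, were used. The guide RNA was either a control (sgNeg) or directed against mtNPM1 (sgNpm1A), and transfected cells were kept for 3 days per the labels, while the study's text gives a longer time. Each mark was profiled by ChIP-seq in 1 library per guide RNA, which gave 4 lists of peaks, and the 2 input libraries were not analysed here. With no replicate of any group there is no spread between samples and no p-value, and every comparison of guide RNAs below describes a pair of libraries. The edited cells were a transfected pool, and the share of cells with an edit was not measured here. All labels name OCI-AML3 as the background of every group. The names of the deposited lists carry the tag OCI2 for H3K27Ac and OCI3 for H3K4me3. The study also used OCI-AML2, another AML line, and whether the H3K27Ac values came from it was not settled here.

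Replication starts where the origin recognition complex, CDC6 and CDT1 load the MCM helicase onto DNA. MCM10, CDC45 and the GINS complex turn the loaded helicase into an active one, and DNA polymerases alpha, delta and epsilon then copy the strands behind it with the help of the PCNA clamp and its RFC loader. Transcription of many of these genes rises at the entry into S phase under E2F transcription factors, and proliferating cells depend on them.

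Promoter sequences of 35 of the 41 genes were at hand in a RefSeq table (GRCh38.p14, from 250 bases before to 50 bases after the start). The letters TTTGGCGC and TTTCCCGC, which resemble the sites bound by E2F factors, were searched on both strands. They were found in 15 of 35 promoters of replication genes (42.9%, 95% Wilson interval 28.0 to 59.1) and in 3.06% of the 15843 protein-coding promoters of the table. The 15 genes were MCM3, MCM6, MCM7, CDC6, CDT1, ORC3, GINS1, GINS2, GINS3, POLE, POLE2, PCNA, RFC3, LIG1 and TYMS, so that each of the 7 role groups described below held at least 1. The CCAAT box (CCAAT, both strands) was found in 60.0% of the promoters of replication genes and in 36.4% of all, whereas CCGGAAG, an ETS-like motif, stood in 11.4% and 14.2% and TTTGAA, the CHR element of cell cycle genes, in 2.86% and 12.1%. No searched motif is contained in another. Median GC content was 65.7% in the replication genes and 62.7% in all, and the median number of CpG was 30 and 22 per promoter. A match of letters does not show binding.

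The 250 bases before the start are shown for 4 genes, since they hold the most matches to these letters and, among genes with equal numbers, the highest sgNeg H3K4me3 peaks. Capitals mark the E2F-like letters in either orientation. They begin 152 and 90 bases before the start in MCM6 (chr2:135876444-135876693, minus strand), 35 bases before it in CDT1 (chr16:88803539-88803788, plus strand), 18 in POLE (chr12:132687343-132687592, minus strand) and 187 in MCM7 (chr7:100101398-100101647, minus strand). Each sequence is written 5′ to 3′ along its gene, on GRCh38.
MCM6: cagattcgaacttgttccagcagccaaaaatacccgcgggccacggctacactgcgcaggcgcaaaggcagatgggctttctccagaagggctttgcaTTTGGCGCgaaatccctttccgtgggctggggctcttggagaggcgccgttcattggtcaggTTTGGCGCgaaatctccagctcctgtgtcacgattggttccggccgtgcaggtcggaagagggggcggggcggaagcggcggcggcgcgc
CDT1: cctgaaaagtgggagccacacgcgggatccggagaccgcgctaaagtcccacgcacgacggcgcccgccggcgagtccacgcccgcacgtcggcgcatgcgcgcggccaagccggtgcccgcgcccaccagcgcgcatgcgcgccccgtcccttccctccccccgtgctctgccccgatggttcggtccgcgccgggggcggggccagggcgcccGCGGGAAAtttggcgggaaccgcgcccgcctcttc
POLE: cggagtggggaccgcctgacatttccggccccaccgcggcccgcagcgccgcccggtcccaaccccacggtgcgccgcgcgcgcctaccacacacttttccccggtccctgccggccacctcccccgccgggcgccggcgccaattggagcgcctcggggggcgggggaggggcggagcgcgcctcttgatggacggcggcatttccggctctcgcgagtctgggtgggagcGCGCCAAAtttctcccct
MCM7: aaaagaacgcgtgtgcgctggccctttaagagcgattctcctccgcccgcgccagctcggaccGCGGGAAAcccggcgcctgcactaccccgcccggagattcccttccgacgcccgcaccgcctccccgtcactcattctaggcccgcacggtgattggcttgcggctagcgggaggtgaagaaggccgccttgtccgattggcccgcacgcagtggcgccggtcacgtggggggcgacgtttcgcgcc
In all 4 genes the sgNeg H3K27Ac peak spanned the start. The highest sgNeg H3K4me3 peak lay beside the printed bases: it began 15 bp into the gene in MCM7, 76 bp in MCM6 and 407 bp in CDT1, and ended 313 bp upstream in POLE.

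A gene was counted as marked when a peak overlapped the 1 kb on either side of any of its annotated transcript starts. Each marked gene was given the percentile of its highest such peak by fold enrichment within its own list, with 0 for no peak, because fold enrichment is scaled within a list. The sgNeg list held 327715 peaks for H3K27Ac and 353628 for H3K4me3, and the sgNpm1A list 317059 and 106641. A percentile of one list therefore ranks among other peaks than the same percentile of another. Replication genes had a median of 9 annotated starts against 5 in other genes, so they were also compared at the start of the canonical transcript alone, which gives each gene 1 window of the same size. Both sgNpm1A lists stood apart. Windows around the canonical starts of the 19840 other genes held a sgNpm1A peak 0.962 times as often as windows 20 kb away for H3K27Ac and 0.676 times as often for H3K4me3, against 1.85 and 2.35 times in sgNeg. NPM1, the targeted gene, had a peak at the canonical start at percentile 99.6 in both sgNeg lists and none in either sgNpm1A list, but a promoter peak does not check the edit. Of 7 myeloid marker genes, 7 had a sgNeg H3K27Ac peak at the canonical start and 5 a sgNeg H3K4me3 peak, with median percentiles of 94.8 and 34.4. The counts were 5 and 2 of 6 for lymphoid markers, with medians of 59.8 and 0, and 3 and 0 of 4 for erythroid markers. In sgNpm1A the H3K27Ac and H3K4me3 counts were 4 and 1 of 7 for myeloid, 5 and 1 of 6 for lymphoid and 2 and 0 of 4 for erythroid markers. PAX5, a B cell factor, had H3K27Ac at percentile 66.8 in sgNeg and 98.1 in sgNpm1A. HOXA9 and MEIS1, which are highly expressed in AML with mtNPM1, had both marks at the canonical start in sgNeg and neither there in sgNpm1A.

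All 41 replication genes had a H3K27Ac peak in sgNeg (100%, 91.4 to 100), compared with 79.8% of other genes and 79.9% of all. In sgNpm1A it was 29 of 41 (70.7%, 55.5 to 82.4), compared with 57.5% of other genes and of all. These 29 included weak peaks: the count was 14 with a q-value under 0.01, 2 among the 20000 peaks of the lowest p-values, and 0 with a q-value under 1e-05 or with a fold of at least 4. In sgNeg H3K27Ac the counts at these limits were 41, 39, 31 and 33 of 41, in the same order. No share of all genes was at hand at these limits, so these counts do not set replication genes apart from other genes. H3K4me3 marked all 41 genes in sgNeg (100%, 91.4 to 100; other genes and all genes 75.7%). In sgNpm1A it marked 9 of 41 (22.0%, 12.0 to 36.7), and 24.6% of both other genes and all. Intervals are 95% Wilson intervals over genes and cover counting error only. Hence the replication genes were marked more often than other genes in both sgNeg lists, while in both sgNpm1A lists their interval took in the share of other genes.

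**Figure D1:**
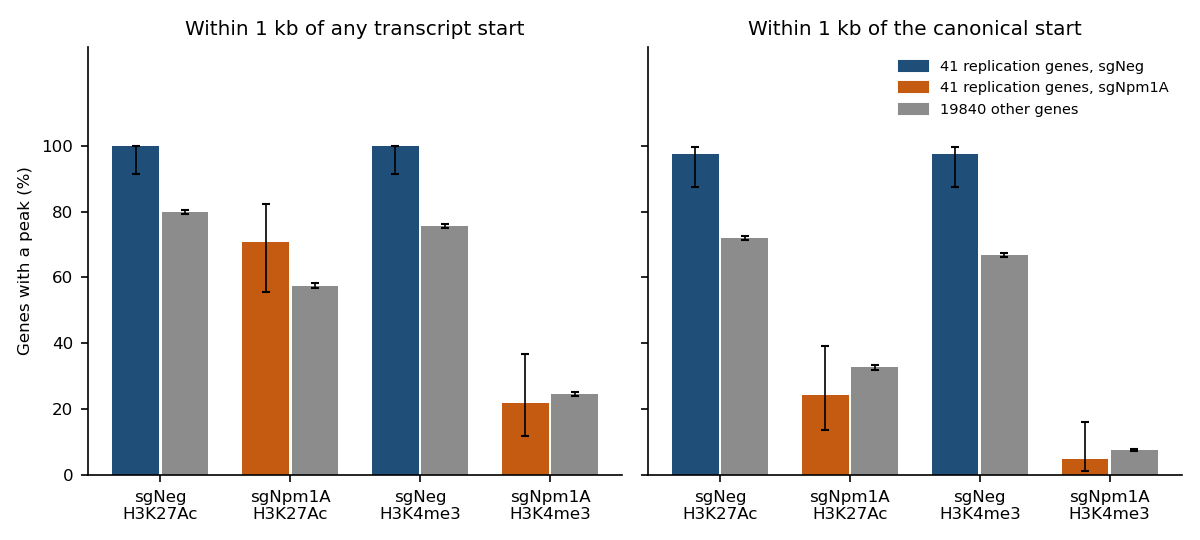
Share of genes with a peak (%) within 1 kb of any transcript start (left) and of the canonical start (right) in the 4 lists. Blue (sgNeg) and orange (sgNpm1A) bars are the 41 replication genes, grey bars the 19840 other genes, and error bars 95% Wilson intervals over genes; the blue bars stand at 100% and 97.6%, above their grey neighbours, and the orange H3K27Ac bar drops from 70.7% at any start to 24.4% at the canonical start.

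At the canonical start, 40 of 41 replication genes were marked in each sgNeg list, compared with 72.1% of all genes for H3K27Ac and 66.9% for H3K4me3. RPA3 was the exception for both marks, and its sgNeg peaks lay 77241 and 77112 bp inside the gene, at another start. The windows of RPA3 also held a start of UMAD1. For sgNpm1A H3K27Ac the count fell to 10 of 41 (24.4%, 13.8 to 39.3), against 32.7% of other genes and 32.6% of all. For sgNpm1A H3K4me3 it was 2 of 41 (4.88%, 1.35 to 16.1), against 7.63% of other genes and 7.62% of all. The order of replication genes and other genes in sgNpm1A H3K27Ac thus turned around with the choice of start, from 70.7% against 57.5% to 24.4% against 32.7%. Windows moved by 20 kb to either side of the canonical start held a sgNpm1A H3K27Ac peak in 20 and 15 of the 41 genes, more than the 10 at the start itself. The same shift gave 20 and 24 genes in sgNeg H3K27Ac and 13 and 12 in sgNeg H3K4me3, against 40 at the start. In sgNpm1A H3K4me3, 5 and 2 of the 41 genes had a peak in the moved windows and 2 at the start.

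**Figure D2:**
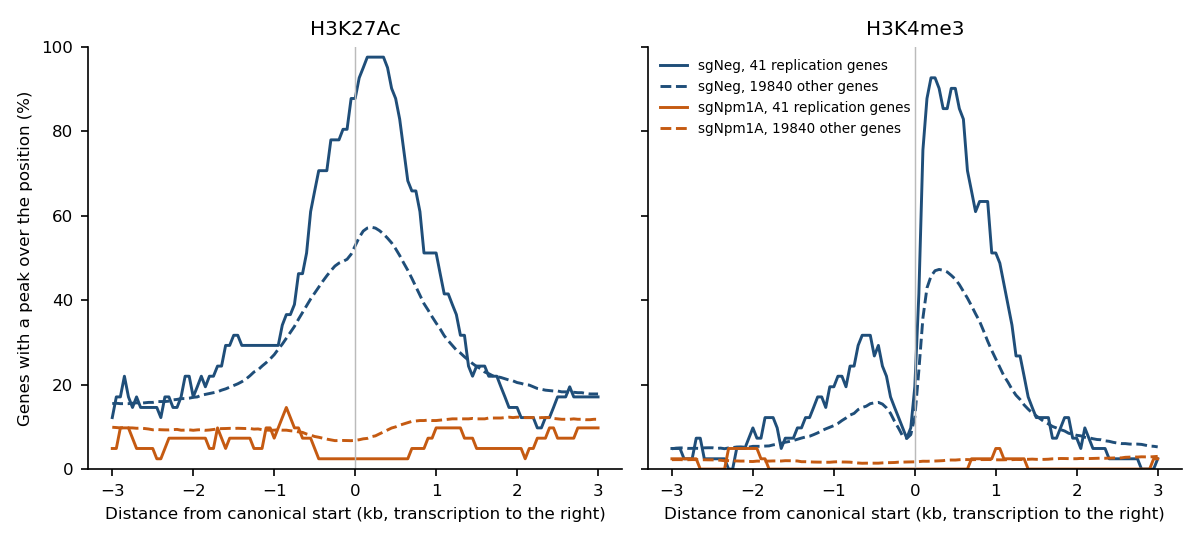
Share of genes with a peak (%) over each position within 3 kb of the canonical start, in steps of 50 bp, for the 41 replication genes (solid) and 19840 other genes (dashed), in sgNeg (blue) and sgNpm1A (orange). sgNeg H3K27Ac rose over the start to 97.6% of replication genes, sgNeg H3K4me3 dipped at the start and rose to 92.7% at 200 bp downstream, and the sgNpm1A curves showed no rise at the start.

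In sgNeg the peaks lay close around the canonical start. A H3K27Ac peak lay over the canonical start itself in 36 of 41 replication genes (87.8%), and the share reached 97.6% at 150 bp downstream, compared with 52.9% and at most 57.3% of other genes. For H3K4me3 a peak lay over the start in only 8 of 41 (19.5%), and the share reached 92.7% at 200 bp downstream, with other genes at 12.3% and at most 47.3%. The summit of the highest H3K4me3 peak stood at a median of 280 bp downstream of the canonical start (interquartile range 227 to 430) and was downstream in 35 of 41 genes. On average 69.8% of the 2-sided window was covered by sgNeg H3K27Ac peaks and 47.8% by sgNeg H3K4me3 peaks, against 45.1% and 25.6% in other genes. In sgNpm1A the covered share was 4.92% and 0.397%, against 8.79% and 1.82%. A sgNpm1A H3K27Ac peak spanned the canonical start in 1 of 41 genes (2.44%), which was ORC5, and no sgNpm1A H3K4me3 peak did, against 6.82% and 1.72% of other genes.

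**Figure D3:**
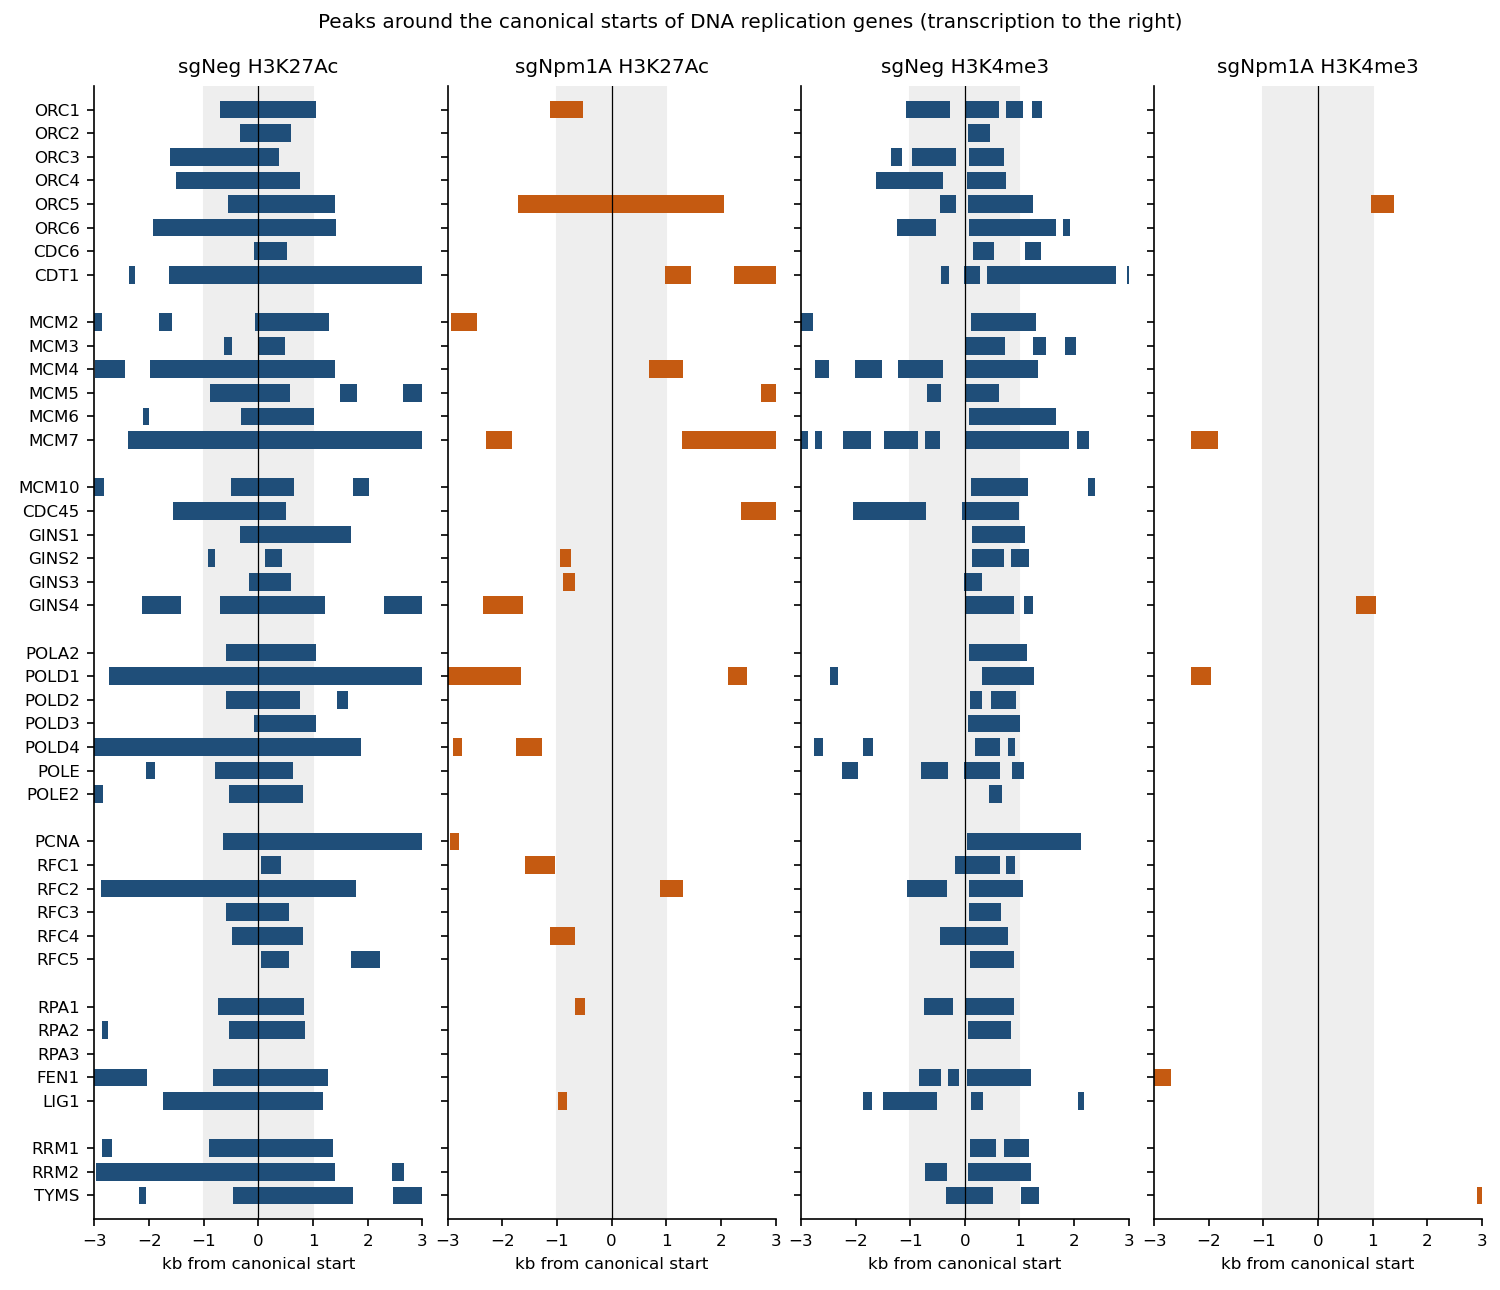
Peaks within 3 kb of the canonical start of each of the 41 replication genes in the 4 lists, with distance in kb along the gene (transcription to the right), the start at 0 and the 1 kb window in grey. Blue bars (sgNeg) cover or flank the start in every row except RPA3, and among orange bars (sgNpm1A) that of ORC5 H3K27Ac alone crosses it.

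Promoter peaks of replication genes ranked near the top of the sgNeg lists. Their median percentile was 98.2 for H3K27Ac (range 91.5 to 99.7) and 98.2 for H3K4me3 (range 34.4 to 99.9), compared with 92.8 and 91.3 in other genes. The values of other genes count a missing peak as 0, and among those with a peak the medians were 96.4 and 96.8. At or above percentile 95 were 39 of 41 replication genes for H3K27Ac, against 45.7% of all genes, and 35 of 41 for H3K4me3, against 44.4%. In sgNpm1A the medians were 20.9 for H3K27Ac (95% order-statistic interval 8.50 to 68.6; other genes 24.4) and 0 for H3K4me3 (other genes 0). Every replication gene had a lower percentile in sgNpm1A than in sgNeg for both marks, as did 83.0% of all genes with a sgNeg H3K27Ac peak and 93.7% of those with a sgNeg H3K4me3 peak. The median difference, sgNpm1A minus sgNeg, was -76.5 for H3K27Ac (-89.8 to -29.6) and -97.7 for H3K4me3 (-98.2 to -94.4). Among other genes with a sgNeg peak it was -35.4 and -88.8. The gap for H3K27Ac was smaller at the canonical start. There the median difference among genes with a sgNeg peak was -97.8 in replication genes and -89.3 in other genes. For H3K4me3 it was -98.2 and -97.2.

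A gene high in sgNeg has more room to fall, so genes of like sgNeg rank were compared. Among genes at or above percentile 95 in sgNeg, a sgNpm1A H3K27Ac peak was present in 28 of 39 replication genes and in 59.9% of all. The corresponding H3K4me3 counts were 8 of 35 and 26.5%. With rank held alike in this way, the share of replication genes that had a H3K4me3 peak in sgNpm1A was near that of all genes. At the canonical start the same comparison gave 10 of 38 (26.3%) for H3K27Ac against 27% of other genes, and 2 of 34 (5.88%) against 2.61% for H3K4me3.

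**Figure D4:**
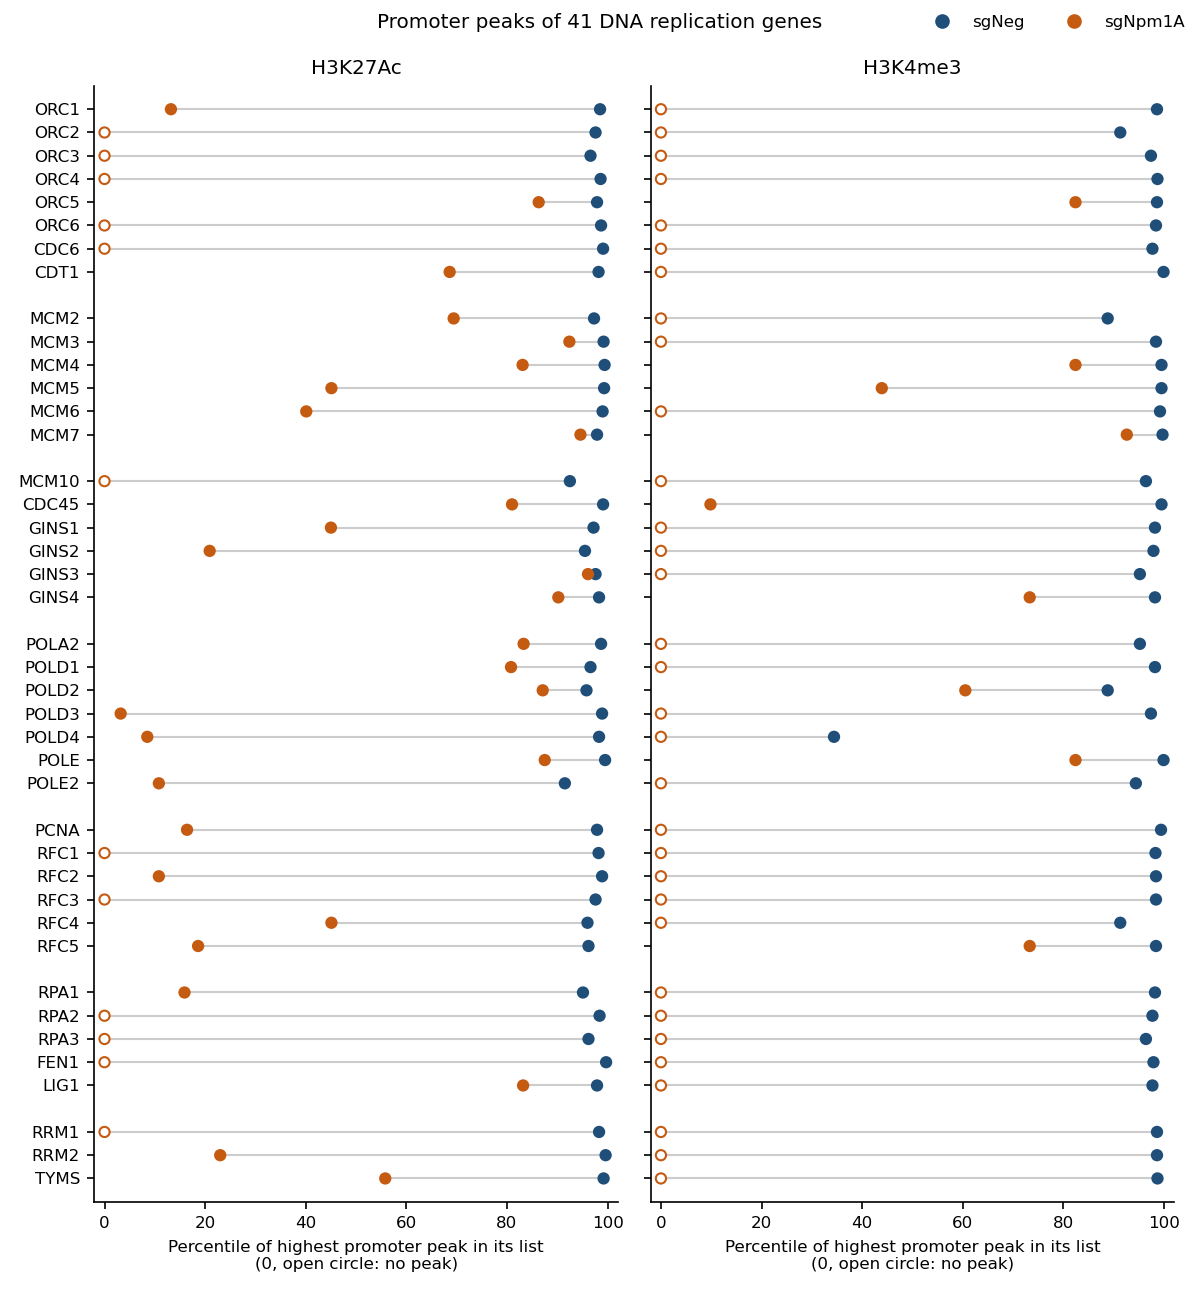
Percentile of the highest promoter peak within its list for each of the 41 replication genes, ordered by role, in sgNeg (blue) and sgNpm1A (orange), with a line joining the 2 values and an open circle at 0 for no peak. Orange points lie left of blue ones in every row, spread from 0 to 96.1 for H3K27Ac, and sit at 0 in 32 of 41 rows for H3K4me3.

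Origin recognition and licensing was represented by ORC1 to ORC6, CDC6 and CDT1, 8 genes in all. All had sgNeg peaks of both marks, 3 had a sgNpm1A H3K27Ac peak and 1 had a sgNpm1A H3K4me3 peak. CDC6, which recruits the helicase to origins, had the highest sgNeg H3K27Ac peak of the group (5.86-fold, percentile 99.1) and a 6.45-fold H3K4me3 peak at 97.7, and no peak of either mark in sgNpm1A. ORC3 had the lowest sgNeg H3K27Ac percentile, 96.6, with H3K4me3 at 97.4, and none in sgNpm1A. CDT1, the loading factor that works with CDC6, had the highest sgNeg H3K4me3 peak of all 41 genes by fold: 13.1-fold, 2360 bp wide, with 62 fragments at its summit (95% Poisson interval 47.5 to 79.5). It was listed with no H3K4me3 peak in sgNpm1A, while its H3K27Ac percentile was 98.2 in sgNeg and 68.6 in sgNpm1A. ORC2 stood lowest for H3K4me3 in sgNeg, at 91.3 with 21 fragments at the summit, with H3K27Ac at 97.6, and had no sgNpm1A peak. ORC5 had a H3K27Ac percentile of 97.9 in sgNeg. In sgNpm1A it was 86.3, from a peak that was 3763 bp wide and spanned the start. Its H3K4me3 percentiles were 98.6 and 82.4. ORC5 was the 1 replication gene of the 41 with both marks within 1 kb of its canonical start in sgNpm1A.

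The MCM helicase, a ring of MCM2 to MCM7 that unwinds DNA, had a sgNpm1A H3K27Ac peak at 6 of 6 genes and a sgNpm1A H3K4me3 peak at 3 of 6. Within 1 kb of the canonical start only MCM4 had a sgNpm1A H3K27Ac peak (at percentile 74.0), and 0 of 6 had a H3K4me3 peak. MCM7 had the highest sgNeg H3K4me3 peak of the ring (11.4-fold, 54 fragments, percentile 99.7) and the widest sgNeg H3K27Ac peak of all 41 genes, 13353 bp, at percentile 97.9. In sgNpm1A its percentiles were 94.6 for H3K27Ac and 92.6 for H3K4me3, from peaks that lay 5142 and 5237 bp from the canonical start. MCM4 was at 99.4 and 99.5 in sgNeg and 83.1 and 82.4 in sgNpm1A, for H3K27Ac and H3K4me3 in turn. For MCM5 the values were 99.3 and 99.5 in sgNeg and 45.1 and 43.9 in sgNpm1A, with sgNpm1A peaks 12142 and 12123 bp into the gene. MCM3 had H3K27Ac at 99.2 and 92.4 in sgNeg and sgNpm1A, the latter from a peak of 154 bp that lay 10835 bp away, and H3K4me3 at 98.4 in sgNeg alone. MCM2 was lowest in sgNeg for both marks, 97.3 and 88.8, with H3K27Ac at 69.4 and no H3K4me3 peak in sgNpm1A.

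Helicase activation (MCM10, CDC45 and GINS1 to GINS4) had a sgNpm1A H3K27Ac peak in 5 of 6 genes and a sgNpm1A H3K4me3 peak in 2 of 6. CDC45, the helicase cofactor, was highest in sgNeg for both marks, 99.1 for H3K27Ac and 99.5 for H3K4me3. Its sgNpm1A H3K27Ac peak was at 81.0, and its H3K4me3 peak, at 9.84, was the lowest of the 9 present and held 11 fragments at the summit, 35417 bp from the start. MCM10 had the lowest sgNeg H3K27Ac percentile of the group, 92.5, with H3K4me3 at 96.4, and no peak in sgNpm1A. GINS3 had the lowest sgNeg H3K4me3 peak of the group (95.2) and yet the highest sgNpm1A H3K27Ac peak of all 41 genes, at 96.1 against 97.6 in sgNeg. That peak was 225 bp wide, lay 673 bp upstream of the start and overlapped no sgNeg peak. GINS4 was at 98.3 in sgNeg and 90.2 in sgNpm1A for H3K27Ac, and at 98.2 and 73.3 for H3K4me3, and its sgNpm1A H3K4me3 peak overlapped the highest sgNeg one.

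The polymerase group was represented by POLA2, POLD1 to POLD4, POLE and POLE2, subunits of polymerases alpha, delta and epsilon. All 7 had a sgNpm1A H3K27Ac peak near some annotated start, but 0 of 7 near the canonical one, and 2 of 7 had a sgNpm1A H3K4me3 peak. POLE, the catalytic subunit of polymerase epsilon, was highest in sgNeg with 99.5 for H3K27Ac (6.57-fold) and 99.9 for H3K4me3 (12.7-fold, 60 fragments). In sgNpm1A it was at 87.5 and 82.4, from peaks 61334 and 44124 bp inside the gene. POLE2 had the lowest sgNeg H3K27Ac percentile of the 41 genes, 91.5, and 10.8 in sgNpm1A, with H3K4me3 at 94.4 in sgNeg alone. POLD4, a small subunit of polymerase delta, had the lowest sgNeg H3K4me3 peak of the 41 (3.12-fold, 14 fragments, percentile 34.4) and a sgNeg H3K27Ac peak of 5191 bp at 98.3. In sgNpm1A it had H3K27Ac at 8.50 and no H3K4me3 peak. POLD2 had H3K4me3 at 88.8 in sgNeg and 60.5 in sgNpm1A, and H3K27Ac at 95.8 and 87.1.

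The sliding clamp PCNA and its loader subunits RFC1 to RFC5 had a sgNpm1A H3K27Ac peak in 4 of 6 genes and a H3K4me3 peak in 1 of 6. PCNA had the highest sgNeg H3K4me3 peak of the group (9.78-fold, percentile 99.4), which lay 7058 bp upstream at another annotated start near one of CDS2, and a peak at 99.0 at its canonical start. Its H3K27Ac percentile was 97.9 in sgNeg and 16.4 in sgNpm1A, and no H3K4me3 peak was listed in sgNpm1A. RFC2 had the highest sgNeg H3K27Ac peak, 98.9, with 10.8 in sgNpm1A. RFC4 was lowest in sgNeg for both marks, 96.0 and 91.3, with H3K27Ac at 45.1 in sgNpm1A. RFC5 was the gene with H3K4me3 in sgNpm1A, at 73.3 after 98.4 in sgNeg, from a peak 3147 bp upstream, and its H3K27Ac values were 96.2 and 18.6.

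Single-strand binding and joining of the lagging strand (RPA1 to RPA3, the flap nuclease FEN1 and the ligase LIG1) had 2 of 5 genes with a sgNpm1A H3K27Ac peak and 0 of 5 with H3K4me3. FEN1 had the highest sgNeg H3K27Ac peak of all 41 genes, 7.40-fold at percentile 99.7, with H3K4me3 at 97.9, and no peak in sgNpm1A. RPA1 was lowest of the group for H3K27Ac in sgNeg (95.1; sgNpm1A 15.9) and highest for H3K4me3 (98.2). RPA3 was lowest for H3K4me3 (96.4), with H3K27Ac at 96.2, and had none in sgNpm1A. Deoxynucleotide supply was represented by RRM1 and RRM2, the subunits of ribonucleotide reductase, and TYMS, which makes thymidylate. RRM2 had H3K27Ac at 99.6 in sgNeg and 23 in sgNpm1A, TYMS at 99.2 and 55.8, and RRM1 at 98.3 with none in sgNpm1A. Their sgNeg H3K4me3 percentiles were 98.6, 98.7 and 98.6, and 0 of 3 had a sgNpm1A H3K4me3 peak.

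In replication genes and in all genes, most of the highest sgNpm1A promoter peaks did not overlap the highest sgNeg promoter peak of their gene. Of the 29 genes with a sgNpm1A H3K27Ac peak, the highest such peak overlapped any sgNeg H3K27Ac peak in 17 and the highest sgNeg promoter peak of the gene in 6, against 70.6% and 34.7% of all genes with a sgNpm1A H3K27Ac peak. The median distance to the canonical start was 8092 bp in these 29 genes, and no such distance was at hand for other genes, for either mark. The 6 genes with overlap of the highest peaks were ORC1, ORC5, CDT1, MCM7, POLD4 and RPA1. For H3K4me3 the corresponding counts were 6 and 2 of 9, the 2 being ORC5 and GINS4, against 64.8% and 19.9% of all, with a median distance of 5237 bp. Genes with a sgNpm1A H3K27Ac peak had a median of 10 annotated starts and genes without one 7, and for H3K4me3 these were 11 and 7.50. The part of this number of windows in the counts at any start was not tested, and the counts at the canonical start do not depend on it.

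All 41 genes had both marks in sgNeg, against 71.1% of other genes, and 9 of 41 (22.0%) had both in sgNpm1A, against 23.4%. At any start, every replication gene with a sgNpm1A H3K4me3 peak also had a sgNpm1A H3K27Ac peak, as did 4633 of 4882 other genes. At the canonical start 1 replication gene had both marks in sgNpm1A and 1, GINS4, had H3K4me3 alone. The counts there were 1294 and 219 among other genes. Across the 41 genes the sgNeg percentiles of the marks had a Spearman's rho of 0.54 and a Pearson's r of 0.06, and across 14116 other genes with both marks 0.65 and 0.54. POLD4, with its low H3K4me3 rank, stands far from the other points. These are descriptions across genes, which are not independent replicates.

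Peaks of replication genes were as wide as those of other genes within the interval for H3K27Ac, and wider for H3K4me3 in sgNeg. The highest promoter peak had a median width of 1578 bp in sgNeg H3K27Ac (95% order-statistic interval 1353 to 2097), with 1514 bp in other genes. In sgNpm1A H3K27Ac it was 451 bp in the 29 genes with a peak (247 to 695), with 565 bp in other genes. The H3K4me3 median was 867 bp in sgNeg (690 to 990), above the 649 bp of other genes (636 to 659), and 377 bp in the 9 genes with a sgNpm1A peak (324 to 603), with 477 bp in other genes. The highest promoter peaks were thus narrower in sgNpm1A by median, in replication genes and in other genes. Over whole lists the median peak width was 358 and 415 bp for H3K27Ac and 192 and 407 bp for H3K4me3, in sgNeg and sgNpm1A. The narrowest peak listed was 110 and 140 bp for H3K27Ac and 110 and 245 bp for H3K4me3, in the same order. The lists differ in the least width they hold, which limits any comparison of widths between guide RNAs.

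**Figure D5:**
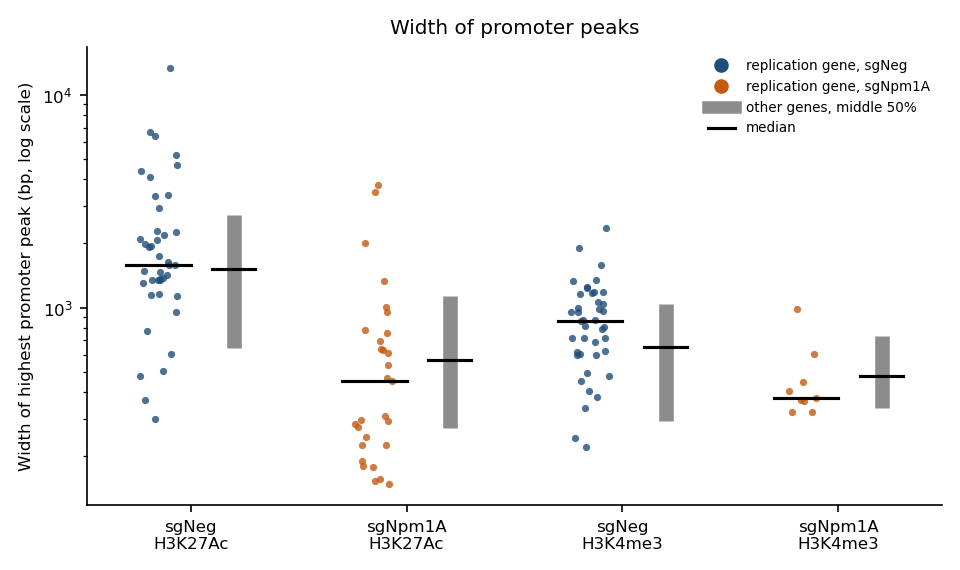
Width in bp (log scale) of the highest promoter peak of each replication gene with a peak in the 4 lists (points), beside the middle 50% of other genes (grey bars), with medians in black. Medians for the replication genes are 1578 and 451 bp for H3K27Ac and 867 and 377 bp for H3K4me3, in sgNeg and sgNpm1A.

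The H3K4me3 libraries differed in expected background. The background expected at any position was 3.81 fragments in sgNeg and 2.93 in sgNpm1A, and the lowest summit in a list held 11 and 10 fragments. By the same arithmetic, the sgNeg fold enrichments of the 41 genes correspond to at least 11.3 fragments (median 26.8) at the sgNpm1A background. The narrowest H3K4me3 peaks listed were 110 bp in sgNeg and 245 bp in sgNpm1A, so the fragment length used in calling may have differed. The backgrounds alone then do not give the difference in depth. The part of depth in the missing sgNpm1A peaks was not tested further. For H3K27Ac each of the 41 sgNeg folds was above 2.66, the lowest fold in the sgNpm1A list. Fold enrichment also falls when a larger part of a library is background, and this and a loss of the mark at these promoters cannot be told apart in peak lists from 1 library. The number of reads per library was not used here.

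A second gene starts close to many of these promoters, and a peak there cannot be assigned to either. In the windows around any annotated start, 19 of the 41 genes had a start of another protein-coding gene, with no share of all genes at hand. The canonical start of another protein-coding gene lay within 1 kb of that of 12 of the 41 genes, compared with 14.0% of all genes. They were ORC1 (PRPF38A at 179 bp), ORC3 (RARS2, 148), ORC4 (MBD5, 354), ORC6 (VPS35, 481), MCM4 (PRKDC, 805), MCM7 (AP4M1, 246), CDC45 (UFD1, 727), POLA2 (34 bp from an unnamed gene), POLE (PXMP2, 245), RPA1 (SMYD4, 103), FEN1 (TMEM258, 312) and LIG1 (ZSWIM9, 336). The highest sgNeg H3K4me3 peak lay upstream of the start in ORC4, ORC6, CDC45, POLE and LIG1, 5 of these 12 genes, and in PCNA.

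Other genes of replication that were not members were counted in the same way. Of 34 such genes, among them the primase subunits, CDC7, TOPBP1, TOP2A and CHAF1A, 34 had a H3K27Ac peak at any start in sgNeg and 17 in sgNpm1A. A H3K4me3 peak was present in 33 and 4. Their median sgNeg percentiles were 98.6 for H3K27Ac and 98.3 for H3K4me3. At the canonical start 7 of 34 had a sgNpm1A H3K27Ac peak and 0 of 34 a sgNpm1A H3K4me3 peak. Of 18 genes of E2F factors, their partners and S phase regulators such as RB1, CCNE1 and CDC25A, 18 had both marks in sgNeg. In sgNpm1A 7 had H3K27Ac and 1 had H3K4me3 at any start, and 4 and 1 at the canonical start. The sgNpm1A shares of all genes were 57.5% for H3K27Ac and 24.6% for H3K4me3 at any start, and 32.6% and 7.62% at the canonical start. In sgNeg they were 79.9% and 75.7% at any start.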

How the data were processed

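Peak lists of 4 ChIP-seq libraries (ChIPmentation, Tn5 tagmentation of precipitated chromatin) were analysed, grouped by sample title, with 1 library per group. The submitters' processing notes name bcl2fastq 2.17, Trimmomatic 0.33, Bowtie 1.1.2, MACS2 2.1.0 and deepTools, with no role given, and hg38 alone. The deposited lists hold a fold enrichment (ratio of pileup to expected pileup, at the summit for the narrow H3K4me3 peaks, over the region for the broad H3K27Ac peaks), the authors' −log10 p-value and −log10 q-value, and a deposited score that was not used. The calling limit and the use of inputs are not given in the sources used here, nor is a correction for Tn5 cut positions. The largest q-values were 0.0707, 0.0437, 0.0308 and 0.0226 in sgNeg and sgNpm1A H3K27Ac and sgNeg and sgNpm1A H3K4me3. Peaks reached 249218478 on chromosome 1 in H3K27Ac, beyond its end on GRCh38, and 83201881 on chromosome 17 in H3K4me3, beyond its end on GRCh37, so H3K27Ac was read on GRCh37 and H3K4me3 on GRCh38. No coordinates were converted: GENCODE 44 mapped to GRCh37 gives each transcript start on GRCh37 and records its original GRCh38 position. Genes with no recorded GRCh38 start (281 of 20162) were left out.

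The 41 genes, the lists and the tests were chosen with earlier results of these data known. Values were given for the highest and lowest sgNeg percentile of each role and mark, every sgNpm1A H3K4me3 peak and every sgNpm1A H3K27Ac percentile of at least 90. An overlap was at least 1 bp. Fragments at H3K4me3 summits were recovered from fold = (pileup + 1)/(background + 1), which gave whole numbers (within 0.01) for 100% of peaks. With this single background per list, the p-values of 100.0% of H3K4me3 peaks were reproduced. The H3K4me3 values thus held no background that varied by position. Intervals cover counting error only. The join was tested on simulated peaks. Python 3.11.15, pandas 2.3.3, numpy 2.4.6, scipy 1.17.1 and bedtools 2.31.1 were used. Alternatives were other limits on q-value, fold or number of peaks, windows and starts.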

Additional observations from a re-analysis of the deposited data

How the results depend on the processing

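The median differences in percentile between sgNpm1A and sgNeg were below 0 in 22 of 22 alternative values. This sign was nearly fixed in advance, since the sgNeg medians were 98.2 for both marks and a missing peak counts as 0. Of all 100 alternative values, 76 stayed near the reported ones (counts within 1.5 times as a share of the genes tested, medians within their 95% intervals). The count of genes with a sgNpm1A H3K27Ac peak went from 29 to 14 with a q-value under 0.01, 0 with a q-value under 1e-05, 0 with a fold of at least 4, 2 among the 20000 peaks of the lowest p-values, 10 when the peak had to span a start, 11 at the start of the gene record and 10 at the canonical start. In the same order the median H3K27Ac difference was -96.2, -98.2, -98.2, -98.2, -97.6, -97.6 and -97.6, and -92.5 with windows of 500 bp. The count in sgNpm1A H3K4me3 went from 9 to 1 with a q-value under 1e-05, 2 among the 20000 peaks, 3 spanning a start, 2 at the gene record and 2 at the canonical start. Apart from the canonical start, no share of all genes was at hand for these alternatives. A H3K4me3 peak spanned a start in 27 of 41 genes in sgNeg, with a median difference of -85.2. Median width rose to 700 bp for sgNpm1A H3K27Ac peaks that span a start (10 genes) and 792 bp for sgNpm1A H3K4me3 among the 20000 peaks (2 genes). No median width could be given for sgNpm1A H3K27Ac where no gene was left. The canonical start for both marks and the gene record for H3K4me3 were chosen after seeing the data. No paired analysis was possible because each group had 1 library, and for the same reason no library could be left out.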
